A study of Mus musculus with 16 samples.

Results

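This account describes the transcripts of nuclear genes that carry proteins into mitochondria or build the respiratory complexes, in mouse heart muscle under right ventricular pressure load. The members were chosen by name: every symbol that begins with Tomm, Timm, Ndufaf, Sdhaf or Coa followed directly by a digit. The rule takes 39 of the 23946 genes in the table, 11 Tomm, 14 Timm, 7 Ndufaf, 2 Sdhaf and 5 Coa genes, and uses no measured value. For contrast, 80 structural subunits of the respiratory complexes and ATP synthase were taken from lists by name.

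PolyA RNA was sequenced from the free walls of the right ventricle (RV) and the left ventricle (LV) of adult male FVB mice, an inbred strain, aged 10 to 13 weeks. The groups of 4 libraries each were RV banded, RV sham, LV banded and LV sham. Banding narrows the pulmonary artery and so loads the right ventricle; sham mice had the operation only, and no allele or drug is named for any group. The label PS was read as banded because the protocol names only banding and sham, and the labels number the 4 banded libraries of each ventricle PS_9552, PS_9553, PS_9561, PS_9564. The labels do not say whether a library is 1 mouse, so p-values measure the spread between these libraries, which may be technical.

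Most mitochondrial proteins are encoded in the nucleus, made in the cytosol and passed through the TOM complex of the outer membrane. Small Tim proteins then chaperone membrane proteins across the intermembrane space, and the TIM22 and TIM23 complexes of the inner membrane insert proteins or pull them into the matrix. Assembly factors help subunits find partners and cofactors and are absent from the finished complex: Ndufaf proteins serve complex I, Sdhaf proteins complex II and Coa proteins complex IV. Heart muscle is rich in mitochondria, so structural subunits are among its abundant transcripts.

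Promoters are shown for Timm13 and Tomm40, the 2 members that were lower in banded right ventricles, since the right ventricular result turns on them. Each window runs from 250 bases before the annotated start to 50 bases after it, 5' to 3' on the gene's strand, from RefSeq on GRCm38.p6. Timm13 lies on the minus strand at chr10:80900920-80901219 and Tomm40 on the minus strand at chr7:19715380-19715679. Capitals mark CATGCGC, part of the site of the nuclear respiratory factor NRF1, in Timm13, and CCAAT boxes in Tomm40.
Timm13: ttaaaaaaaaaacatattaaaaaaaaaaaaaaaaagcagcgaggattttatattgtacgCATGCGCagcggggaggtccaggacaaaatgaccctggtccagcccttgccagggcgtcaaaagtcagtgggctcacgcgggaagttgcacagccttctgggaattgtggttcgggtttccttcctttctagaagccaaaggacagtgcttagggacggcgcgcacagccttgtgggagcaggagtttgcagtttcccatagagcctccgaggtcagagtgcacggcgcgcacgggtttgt
Tomm40: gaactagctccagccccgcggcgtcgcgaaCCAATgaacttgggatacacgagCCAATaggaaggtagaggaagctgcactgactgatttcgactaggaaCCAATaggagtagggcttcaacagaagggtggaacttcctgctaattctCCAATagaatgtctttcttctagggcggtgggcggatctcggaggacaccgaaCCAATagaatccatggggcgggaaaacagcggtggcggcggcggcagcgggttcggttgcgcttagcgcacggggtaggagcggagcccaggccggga

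Both strands of such windows were searched for 6 sets of letters, in 34 members, 66 subunits and 9522 tested genes with an entry. Shares are of genes with a match in any of their windows. The 34 members include Timm8a2 and Tomm20l, whose levels were too low to be tested. The ETS site CCGGAAG, which the factor GABP can bind, was in 35.3% of members, 25.8% of subunits and 19.9% of tested genes. The full NRF1 site, GCGCA and GCGC with any 1 base between them, was in 11.8% of members, 25.8% of subunits and 11.6% of tested genes. CATGCGC, which can overlap the full site, was in 8.82%, 19.7% and 7.8% in the same order. The YY1 site AAGATGGC was in 2.94%, 15.2% and 5.32%, the ERR site TCAAGGTCA in 2.94%, 3.03% and 0.326%, and CCAAT in 38.2%, 42.4% and 42.3%. CATGCGC and CCAAT were added to the search after the sequences had been seen, and a match describes letters only. Tomm7, on chromosome 5 and higher in banded left ventricles, has no entry.

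Levels are FPKM, fragment counts scaled to transcript length and library depth, so that levels of different genes can be compared. The most abundant members over all 16 libraries were Timm8b, Coa3, Timm17a and Tomm7, with means of 163, 116, 105 and 98.6 FPKM. Of the 80 structural subunits, 69 averaged more than Timm8b and 11 did not, down to Atp5g2 at 0.104 FPKM. The abundant subunit Atp5k averaged 2930 FPKM in RV banded and 6900 FPKM in RV sham libraries, and Cox8b 2670 and 6510 FPKM. Members at 1 FPKM or more in at least 4 libraries numbered 36, and only these were tested. Timm8a1, Timm8a2 and Tomm20l, paralogues of Timm8b and Tomm20, did not pass and were above 0 in 3, 2 and 5 libraries, at no more than 0.98, 0.295 and 1.23 FPKM. Tomm6os, an RNA antisense to Tomm6, is taken in by its symbol and reached at most 2.15 FPKM.

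Depth and scale differed between libraries, which bears on every comparison. Estimated fragments numbered 2380000 to 5460000 in RV banded, 342000 to 1370000 in RV sham, 3610000 to 8880000 in LV banded and 1800000 to 4140000 in LV sham libraries, with an assumed fragment length of 200 nt. Of the 36 tested members, 3 had a library under 10 estimated fragments among RV banded and 21 among RV sham libraries, and under 10 fragments a level is coarse. The precursor of ribosomal RNA, Rn45s, had a listed value of 0 in RV banded PS_9561 and PS_9564 and in LV banded PS_9552, PS_9553 and PS_9561. The test was therefore run on FPKM as deposited and again after each library was divided by its own scale factor (called rescaled), and a gene counts as changed only where limma's adjusted p passed 0.05 in the same direction on both. Scale factors were 1.22 to 1.28 in the libraries listed at 0 for Rn45s and 0.84 to 1.02 in all others. Log2 differences are of FPKM + 1, which understates changes of low genes, and are as deposited unless called rescaled.

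In banded right ventricles few members changed. Timm13 and Tomm40 fell, and no member rose, out of 36 tested (5.56% lower). Over all 12100 tested genes, 4.93% fell and 10.5% rose, so the members' share of falls was near that of all genes. At an unadjusted limma p under 0.05 as deposited, 4 members were higher (11.1%) and 6 lower (16.7%), beside 26.2% and 8.44% of all tested genes. Cardiomyocyte markers, 8 genes all above 0, summed to 17300 to 24700 FPKM in RV banded and 26800 to 29800 FPKM in RV sham libraries. Within that list Myl2 and Tnni3, both proteins of the contractile filaments, fell and carry the sum, while 4 of the 8 log2 differences were positive and the median was -0.09. Their part in the right ventricular results was not tested. In bulk tissue, fewer cells of a type and less RNA per cell cannot be told apart.

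Timm13, a small Tim protein that works with Tim8 as a chaperone in the intermembrane space, was at 32.4, 29.7, 34.5 and 22.0 FPKM in RV banded libraries, against 85.5, 77.5, 40.3 and 64.9 FPKM in RV sham libraries. Every banded value lay below every sham value, the closest pair being 34.5 and 40.3 FPKM. Its log2 difference was -1.12 ± 0.22 SE as deposited (limma adjusted p = 0.00305) and -1.30 rescaled (limma adjusted p = 0.00141). Its level rested on an estimated 70.9 to 193 fragments in RV banded and 26.3 to 120 in RV sham libraries.

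Tomm40, the channel of the outer membrane translocase, was at 47.4, 48.4, 49.1 and 52.9 FPKM in RV banded libraries, against 96.8, 65.6, 71.5 and 84.3 FPKM in RV sham libraries. As deposited, the groups did not overlap, and the banded libraries lay within a few FPKM of each other. The scale factors of these banded libraries were 0.896, 0.931, 1.22 and 1.26, so their rescaled values lie further apart. The log2 difference was -0.66 ± 0.17 SE as deposited (limma adjusted p = 0.0163) and -0.85 rescaled (limma adjusted p = 0.00781). TPM scaling brings every library to the same FPKM sum, which depends strongly on a single entry, Mir6236. That entry made up 21.3% of the sum in RV banded PS_9552 and 59.7% in RV banded PS_9564, the lowest and highest shares. With TPM scaling, Timm13 and Tomm40 kept negative differences of -0.63 and -0.17 that did not pass (limma adjusted p = 0.113 and 0.553). Without the libraries listed at 0 for Rn45s, which leaves 2 RV banded libraries, the differences were -1.04 and -0.70 (limma adjusted p = 0.0548 and 0.0795). An annotated antisense RNA, Gm20512, overlaps exons of Tomm40, and whether counting used strand is not given in the sources used here.

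**Figure D1:**
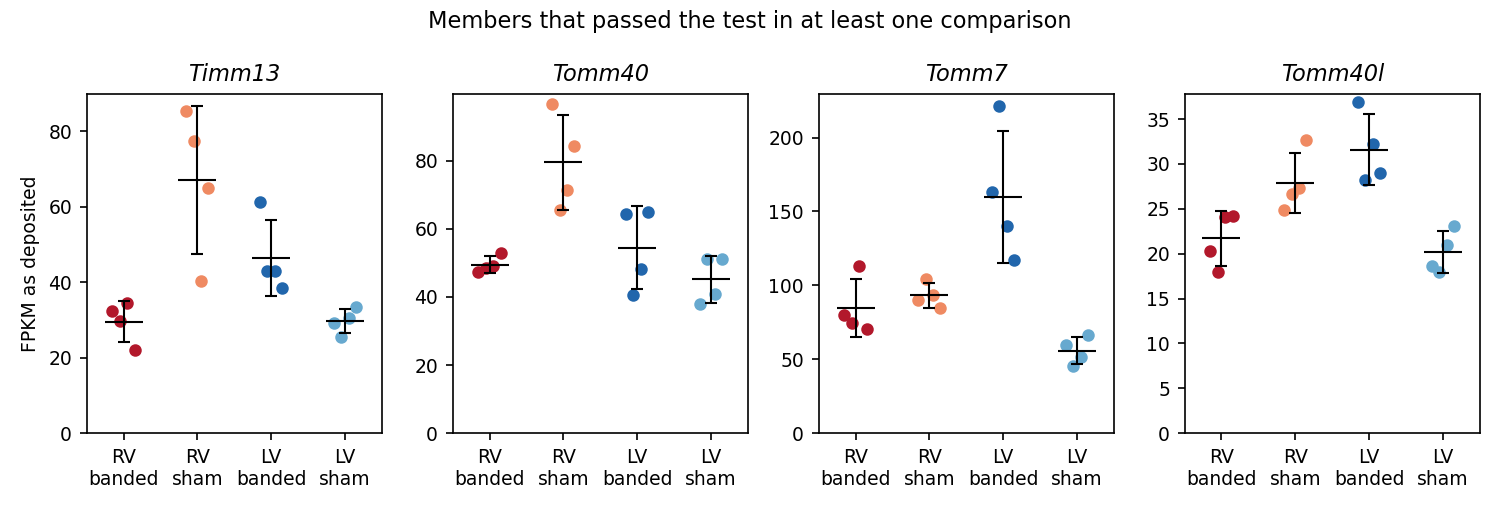
FPKM as deposited (y axis, from 0) of the 4 members that passed in at least 1 comparison, by group; points are libraries, bars the mean and SD of 4. Timm13 and Tomm40 are lower in RV banded than in RV sham libraries, and Tomm7 is higher in LV banded (117 to 221 FPKM) than in LV sham libraries (45.6 to 66.7 FPKM).

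The other outer membrane genes gave no call in the right ventricle. Tomm40l, a paralogue of Tomm40, was at 20.3, 18, 24.1 and 24.2 FPKM in RV banded and 24.9, 26.7, 27.3 and 32.7 FPKM in RV sham libraries. These groups did not overlap, yet the log2 difference of -0.36 ± 0.15 SE passed only rescaled (limma adjusted p = 0.108 as deposited and 0.00726 rescaled). Nr1i3, on the other strand and overlapping its exons, was at most 0.747 FPKM in any library. Tomm70a, a receptor for carrier proteins, was at 3.48, 4.64, 6.91 and 6.33 FPKM in RV banded and 2.80, 2.13, 3.66 and 3.26 FPKM in RV sham libraries. Only the lowest banded value fell within the sham range, and its log2 difference was 0.66 ± 0.26 SE (limma adjusted p = 0.0881). Tomm5, a small subunit of the complex, was at 83.7, 69.7, 94.5 and 87.7 FPKM in RV banded and 91.6, 82.8, 101 and 109 FPKM in RV sham libraries. These ranges overlapped, and it passed only rescaled (log2 difference -0.39 rescaled, limma adjusted p = 0.036). Tomm20 and Tomm22, the other receptors, had log2 differences of 0.62 and -0.21 (limma adjusted p = 0.167 and 0.361), and Tomm20 has near-identical copies elsewhere in the genome that can share its reads. Tomm6, another small subunit, and Tomm34, a cytosolic co-chaperone, had log2 differences of 0.03 and 0.17 (limma adjusted p = 0.946 and 0.644).

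Among the other Timm genes, none passed on both scales in the right ventricle. Timm50, the receptor subunit of the TIM23 complex, was at 19.5, 21.1, 22.3 and 23.3 FPKM in RV banded and 27.6, 23.0, 29.8 and 35.7 FPKM in RV sham libraries. A single banded value exceeded the lowest sham value, and its log2 difference of -0.40 ± 0.17 SE passed only rescaled (limma adjusted p = 0.103 as deposited and 0.016 rescaled). Timm10, a chaperone of the intermembrane space that partners Timm9, was at 86.5, 90.0, 104 and 55.6 FPKM in RV banded and 111, 80.7, 100 and 125 FPKM in RV sham libraries. The ranges overlapped, and the log2 difference was -0.33 ± 0.19 SE (limma adjusted p = 0.221). Timm8b, a Tim8 protein and the most abundant member, was at 176, 163, 163 and 89.5 FPKM in RV banded and 183, 88.7, 150 and 166 FPKM in RV sham libraries. Its groups overlapped over almost their whole range, with a log2 difference of 0.01 ± 0.26 SE (limma adjusted p = 0.978).

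Timm17a, a subunit of the TIM23 channel, was at 83.2, 81.0, 123 and 85.1 FPKM in RV banded and 88.3, 127, 88.3 and 96.3 FPKM in RV sham libraries. Banded and sham values were mixed, a near-identical gene, Gm7180, can share its reads, and the log2 difference was -0.11 ± 0.18 SE (limma adjusted p = 0.702). Timm23, the channel itself, was listed at 0 in RV banded PS_9552, RV sham 1 and 2 and LV sham 1, never exceeded 3.02 FPKM in any library, and has 6 near-identical gene copies, so its level is uncertain. Timm44, which tethers the import motor to that channel, and Timm21 and Timm22 had log2 differences of -0.14, 0.09 and 0.48, with limma adjusted p-values of 0.619, 0.784 and 0.273. Timm9, the partner of Timm10, Timm10b and Timm17b had log2 differences of -0.33, -0.29 and 0.15 (limma adjusted p = 0.467, 0.423 and 0.747), and their groups overlapped. Exons of Timm8b, Timm10b and Timm17b overlap genes on the other strand, Nkapd1, Arfip2 and Gm10491.

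Of the 7 complex I assembly factors, none passed in the right ventricle on either scale. Ndufaf7, a methyltransferase for a complex I subunit, was at 8.65, 10.3, 15.4 and 13.6 FPKM in RV banded and 9.89, 5.03, 8.15 and 8.55 FPKM in RV sham libraries. Its ranges overlapped in 1 banded library, with a log2 difference of 0.55 ± 0.22 SE (limma adjusted p = 0.0882). Ndufaf1, a chaperone of an early membrane intermediate, was at 11.6, 17, 19 and 15.3 FPKM in RV banded and 5.74, 13.2, 15.9 and 6.27 FPKM in RV sham libraries. The sham libraries formed a low and a high pair, and the log2 difference was 0.66 ± 0.29 SE (limma adjusted p = 0.11). Ndufaf3, which works with Ndufaf4, was at 23.8, 22.3, 28.2 and 18.5 FPKM in RV banded and 59.1, 25.9, 22.7 and 34.6 FPKM in RV sham libraries. RV sham 1 stood above the others, the groups overlapped, and the log2 difference was -0.51 ± 0.26 SE (limma adjusted p = 0.162).

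Ndufaf2, a paralogue of the subunit Ndufa12, was at 18.9, 22.6, 31.3 and 21.2 FPKM in RV banded and 18.4, 3.61, 30.8 and 23.5 FPKM in RV sham libraries. RV sham 2, at 3.61 FPKM, set its log2 difference of 0.57, which was -0.04 without that library (limma adjusted p = 0.354 with it and 0.927 without). Ndufaf6 was listed at 0 in RV sham 2, and its difference was 0.68 with that library and -0.23 without it (limma adjusted p = 0.425 and 0.546). Ndufaf4 and Ndufaf5 had log2 differences of -0.42 and 0.55 (limma adjusted p = 0.341 and 0.292), with overlapping groups. The family's median log2 difference was 0.55 as deposited and 0.39 rescaled, beside 0.26 and 0.11 for all tested genes. As deposited, the sign of the family's median rests on RV sham 2. Without that library Ndufaf2 and Ndufaf6 were negative, and Ndufaf3 and Ndufaf4 were negative whichever library was left out.

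The complex II assembly factors did not pass either. Sdhaf1, which helps give the subunit Sdhb its iron-sulfur clusters, was at 19.7, 18.9, 19.3 and 15.1 FPKM in RV banded and 23.9, 35.8, 21.8 and 22.3 FPKM in RV sham libraries. The groups did not overlap, but the log2 difference of -0.47 ± 0.18 SE passed only rescaled (limma adjusted p = 0.0869 as deposited and 0.0435 rescaled). Sdhaf2, which helps attach the flavin cofactor to Sdha, was at 9.39, 9.57, 16.1 and 12.8 FPKM in RV banded and 9.23, 7.60, 11.3 and 8.27 FPKM in RV sham libraries. Its groups overlapped, with a log2 difference of 0.34 ± 0.24 SE (limma adjusted p = 0.317). Sdhaf1 and Sdhaf2 overlap exons of genes on the other strand, E130208F15Rik and Cpsf7.

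Complex IV assembly factors were mixed in sign, and none passed on both scales. Coa3, which acts with the newly made mitochondrial subunit Cox1, was at 99.5, 92.7, 129 and 91.5 FPKM in RV banded and 159, 125, 111 and 146 FPKM in RV sham libraries. Only the highest banded library reached into the sham range, and the log2 difference of -0.39 ± 0.16 SE passed only rescaled (limma adjusted p = 0.102 as deposited and 0.0169 rescaled). Coa5 was at 31.1, 34.7, 46.7 and 49.4 FPKM in RV banded and 30.9, 39.2, 17.7 and 20.5 FPKM in RV sham libraries. These ranges overlapped, with a log2 difference of 0.61 ± 0.24 SE (limma adjusted p = 0.0822), and without RV sham 2 it was 0.80 and passed (limma adjusted p = 0.026). Coa4 was at 15.2, 11.1, 17.2 and 13.6 FPKM in RV banded and 20.7, 0, 12 and 15.1 FPKM in RV sham libraries. The 0 in RV sham 2 set its sign: the log2 difference was 0.88 with that library and -0.13 without it (limma adjusted p = 0.341 and 0.724). Coa6, which takes part in copper delivery to complex IV, had a log2 difference of -0.36 (limma adjusted p = 0.483), and Coa7 one of -0.26 (limma adjusted p = 0.435), with overlapping groups in each.

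Over the list, 18 log2 differences were negative and 18 positive as deposited, and 23 were negative rescaled. The 7 members that were lower on the rescaled values alone were Timm13, Tomm40, Coa3, Sdhaf1, Timm50, Tomm40l and Tomm5, beside 9.1% of all tested genes. Groups that did not overlap, with banded lower, were seen in Timm13, Tomm40, Tomm40l and Sdhaf1, 4 of 36 members beside 5.07% of all tested genes, and with banded higher in 0 members beside 12.6%. The 95% interval of the log2 difference lay wholly above -1 for 31 of 36 members as deposited and for 29 rescaled. It lay within -1 and 1 for 20 members as deposited and 22 rescaled, so the intervals of the others reach past 1 or -1.

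**Figure D2:**
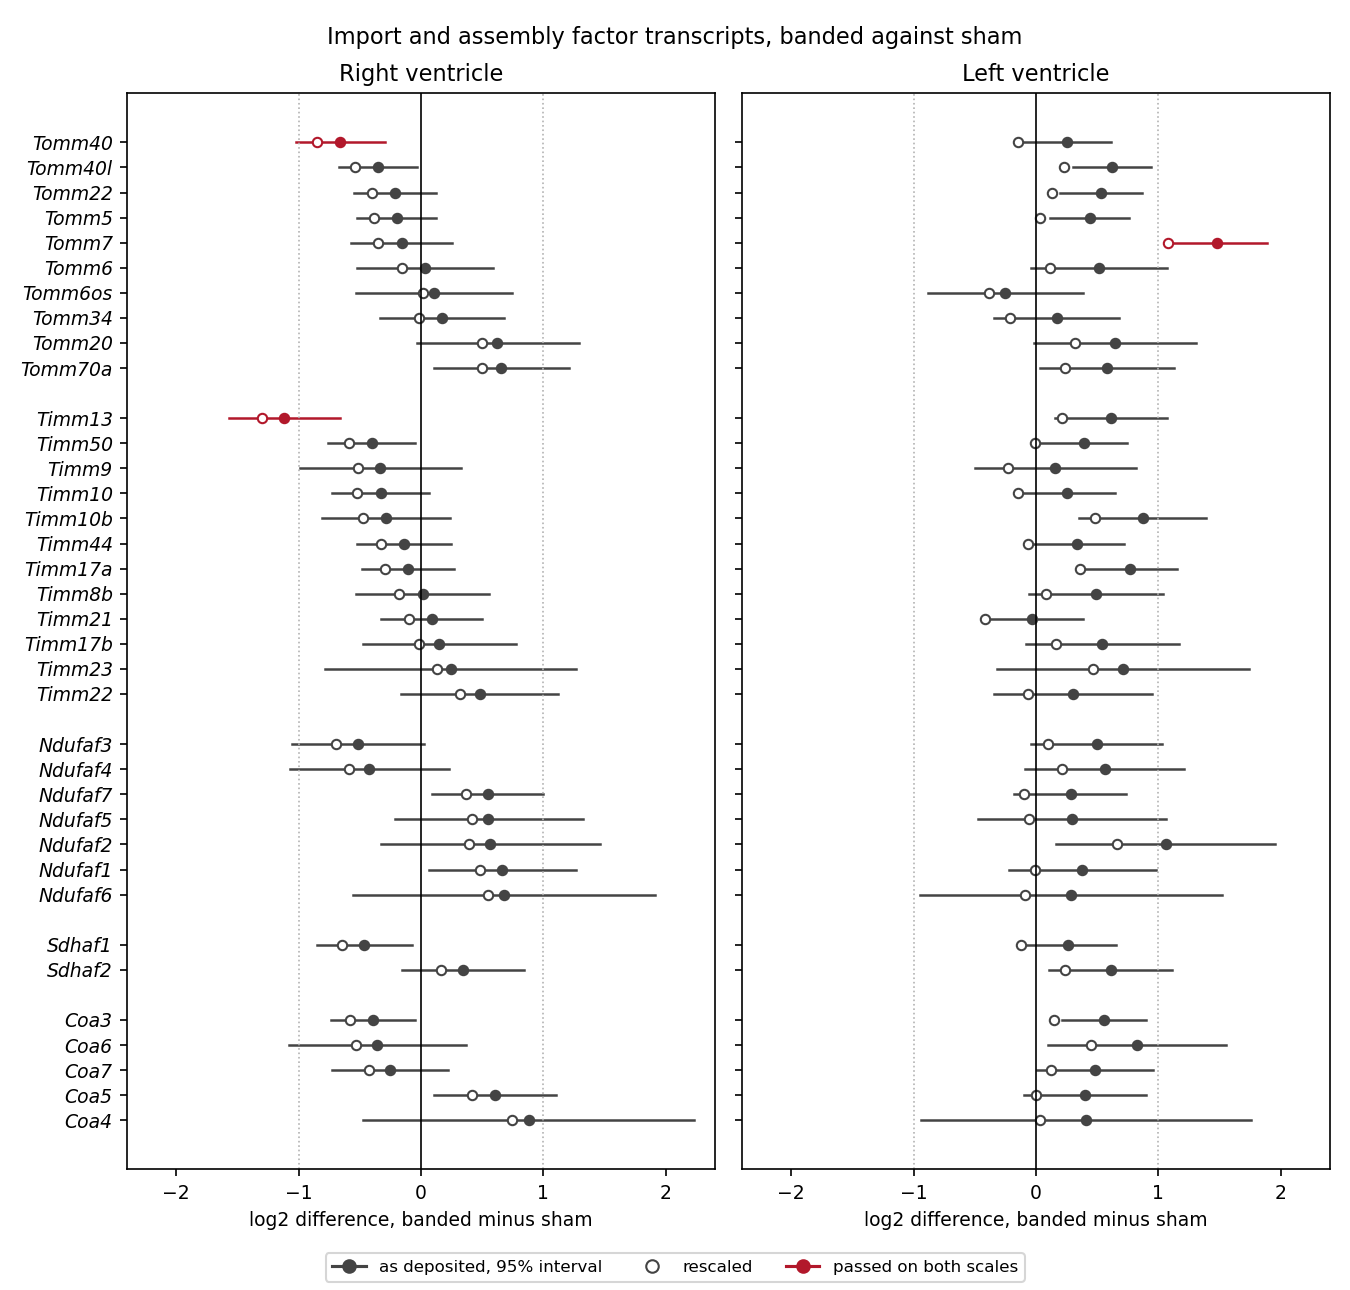
Log2 difference, banded minus sham (x axis), of the 36 tested members by family, in the right (left panel) and left ventricle (right panel); filled points with 95% intervals are as deposited, open points rescaled, red passed on both. Timm13 and Tomm40 are the red points in the right ventricle and Tomm7 in the left.

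The structural subunits of the same complexes were read beside the members in the right ventricle. The members' median log2 difference was -0.05 as deposited and -0.24 rescaled, against -0.78 and -0.97 for 79 tested subunits, of which 49 fell (62%) and none rose. Falls were counted in 21 of 36 complex I, 3 of 4 complex II, 6 of 9 complex III, 8 of 15 complex IV and 11 of 15 ATP synthase subunits. In the assembly factors' own complexes, no Ndufaf, Sdhaf or Coa gene fell on both scales. Because no test compares the lists, the counts and medians are set side by side only.

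The subunits named next were picked for small p, so they do not show the typical size of the contrast. The 79 tested subunits had a median log2 difference of -0.78 and a lowest value of -1.62. Cox7a1, a heart and muscle form of a complex IV subunit, averaged 2260 ± 688 FPKM in RV banded and 6250 ± 821 FPKM in RV sham libraries (SD, n = 4 each; log2 difference -1.52, limma adjusted p = 0.00105). Atp5e, a subunit of ATP synthase, averaged 1010 ± 182 and 2630 ± 743 FPKM in the same order (log2 difference -1.36, limma adjusted p = 0.00105). Ndufa13 of complex I averaged 239 ± 30.9 FPKM in RV banded and 514 ± 70.2 FPKM in RV sham libraries, and Cyc1, the cytochrome c1 of complex III, 552 ± 51.1 and 1060 ± 78.3 FPKM. Sdhc, a membrane anchor of complex II, averaged 550 ± 23.0 FPKM in RV banded and 950 ± 46.6 FPKM in RV sham libraries. The positive log2 differences with the smallest p in complexes I, III and IV were 1.98 for Ndufb4, 0.77 for Uqcrb and 0.06 for Cox4i2, whose rescaled value was -0.11, and none of the 3 passed. Ndufb4 was at 22.1, 10.3, 9.59 and 4.49 FPKM in RV banded and 12.7, 0, 0 and 3.61 FPKM in RV sham libraries. Its difference thus leans on the values of 0 in RV sham 2 and 3.

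**Figure D3:**
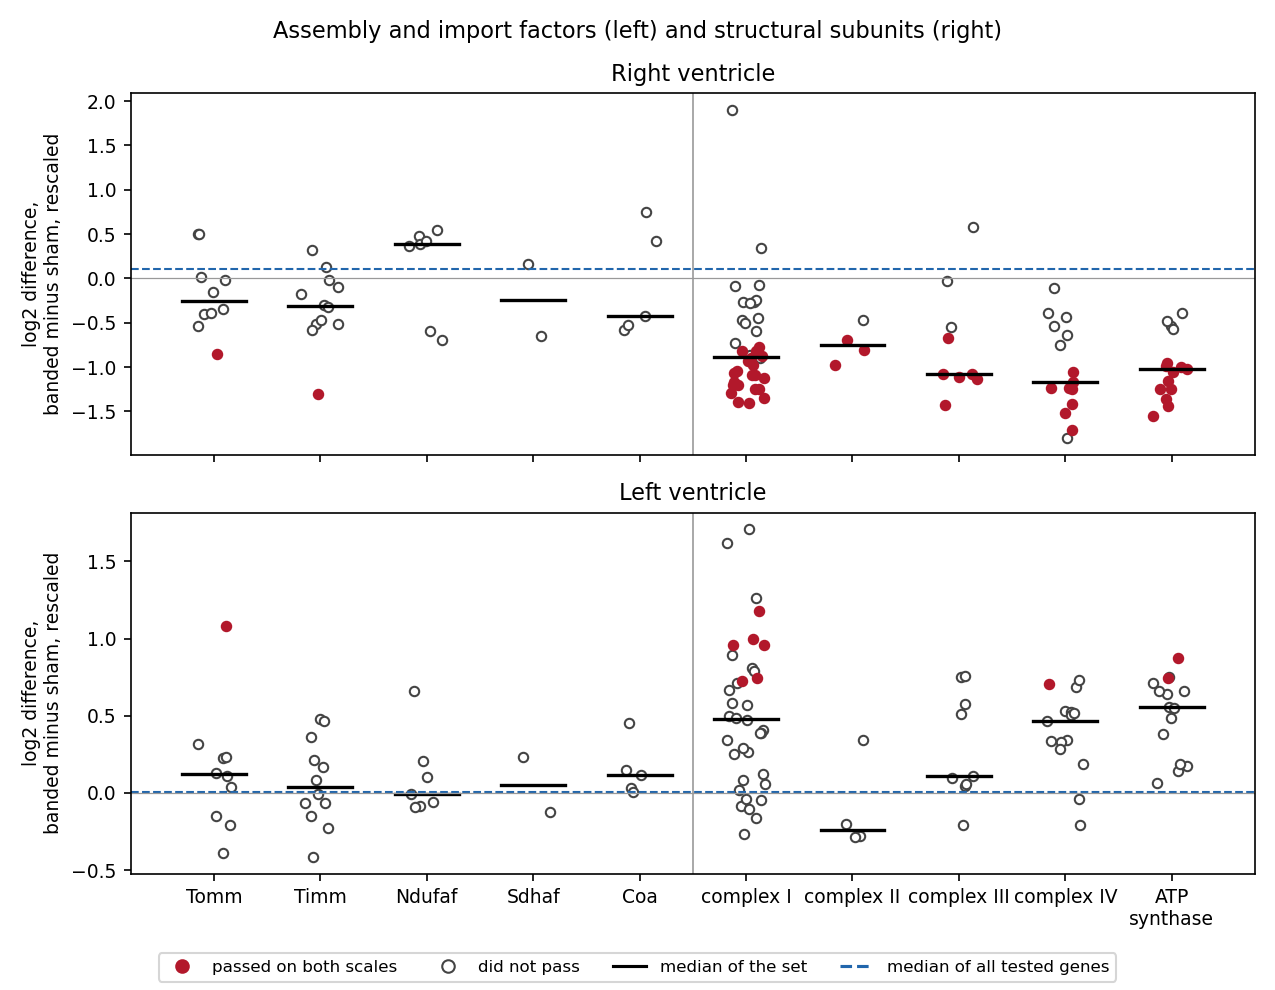
Rescaled log2 difference, banded minus sham (y axis), of members by family (left of the line) and of subunits by complex (right), for each ventricle; filled points passed on both scales, bars are set medians and the dashed line the median of all tested genes. In the right ventricle 2 members and 49 subunits are filled below 0, and in the left 1 member and 9 subunits above 0; with TPM scaling 0 members and 3 subunits were lower in the right ventricle and 10 members and 2 subunits higher, beside 47.0% of all tested genes higher.

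The sign of the members' median depended on the scaling. The median stayed below that of all tested genes under the 5 scalings tried, though not all of these could have changed that order. The members' median in the right ventricle was -0.05 as deposited, -0.24 rescaled, -0.18 after quantile normalization, -0.22 once trends with transcript length and GC content were removed, and 0.38 with TPM scaling. The median of all tested genes was 0.26, 0.11, -0.01, 0.09 and 0.65 in the same order. Taken relative to all tested genes the members' median was -0.31, -0.35, -0.17, -0.32 and -0.28, and relative to the subunits it was 0.74 both as deposited and rescaled, 0.32, 0.49 and 0.66. Deposited, rescaled and TPM values differ only by a constant factor per library, which moves all genes almost alike. Their similar gaps are therefore not separate evidence on the order of the lists. Only quantile normalization and the length and GC correction could have changed that order, and neither did.

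Transcript length and base composition differ between the lists. The median annotated transcript was 1718 nt for tested members, 875 nt for subunits and 3057.5 nt for all tested genes, in GENCODE vM21. The rescaled median difference was -0.18 for 11 members under 1200 nt and -0.30 for 25 longer ones, against -0.996 for 51 shorter and -0.78 for 28 longer subunits. The members thus lay above the subunits in both length classes. Across the 36 members the right ventricular difference had a Pearson correlation of -0.43 with GC content and 0.13 with length, and across all genes the correlation with GC content was -0.30; these genes share libraries and depth. Tomm40 had the highest GC content of the members, at 61.5%, and Timm13 had 58.2%. After correction for length and GC content Timm13 and Tomm40 still passed, at smaller differences of -0.85 and -0.39 (limma adjusted p = 0.0081 and 0.044). In that fit 9 of 36 members and 57 of 79 subunits were lower, beside 6.75% of all 12012 genes with a length.

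Other genes of the same pathways were read from lists by name. Of 23 other import genes, none passed on both scales in banded right ventricles, with a median log2 difference of 0.08. The smallest p-values were those of Dnajc15, a co-chaperone of the import motor, and Hspa9, the motor's heat shock protein (log2 differences -0.85 and 0.46, limma adjusted p = 0.0722 and 0.1). Of 33 other assembly factors, Uqcc2 and Cox20 fell and Sco1 rose, and the median was -0.03. Uqcc2, for complex III, averaged 143 ± 37.6 FPKM in RV banded and 236 ± 39.5 FPKM in RV sham libraries (log2 difference -0.74, limma adjusted p = 0.0256). Cox20, which stabilizes a newly made complex IV subunit, averaged 39.0 ± 9.64 and 69.9 ± 20.1 FPKM in the same order. Sco1, a copper carrier for complex IV, averaged 6.29 ± 1.59 FPKM in RV banded and 3.22 ± 1.46 FPKM in RV sham libraries (log2 difference 0.82, limma adjusted p = 0.0277). Cox19, with the smallest p among those with positive differences, passed only as deposited (limma adjusted p = 0.025 as deposited and 0.0772 rescaled).

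In banded left ventricles, Tomm7 rose and no member fell. Among all tested genes 2.44% rose and 0.298% fell, so 1 of 36 members is near the share of all genes. Tomm7 encodes a small subunit of the TOM complex that is also needed for the kinase Pink1 to build up on damaged mitochondria. It was at 163, 221, 140 and 117 FPKM in LV banded libraries, against 59.8, 45.6, 51.4 and 66.7 FPKM in LV sham libraries. The groups were far apart, and the log2 difference was 1.48 ± 0.19 SE as deposited (limma adjusted p = 0.000701) and 1.08 rescaled (limma adjusted p = 0.009). In the right ventricle Tomm7 was at 80.1, 74.6, 113 and 70.8 FPKM in banded and 90.2, 104, 93.7 and 84.8 FPKM in sham libraries, which overlapped (log2 difference -0.16, limma adjusted p = 0.588).

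The left ventricular call has a limit: 3 of the 4 LV banded libraries were listed at 0 for Rn45s, and the remaining 1 cannot decide whether the call holds. With that 1 banded library the log2 difference was 1.07. With all libraries and the length and GC correction it was 0.78 and passed (limma adjusted p = 0.0106). As deposited, 5 more members passed as higher in LV banded libraries, Timm17a, Tomm40l, Timm10b, Coa3 and Tomm22, where 14.3% of all tested genes did. None of the 5 passed rescaled. Groups without overlap, banded higher, were seen in 9 members beside 22.2% of all tested genes. The members' median log2 difference was 0.49 as deposited and 0.09 rescaled, beside 0.33 and 0.01 for all tested genes. Subunits had medians of 0.88 and 0.47, and 9 of 79 rose. Cardiomyocyte marker sums were 36900 to 45400 FPKM in LV banded and 18100 to 28500 FPKM in LV sham libraries. Other marker sums were also higher without overlap: erythroid (4 genes) at 494 to 1160 FPKM in LV banded and 131 to 249 FPKM in LV sham libraries, macrophage (7 genes) at 131 to 196 and 59.6 to 98.9 FPKM, endothelial (7 genes) at 1590 to 2220 and 1070 to 1240 FPKM, and fibroblast (7 genes) at 339 to 686 and 204 to 320 FPKM. All these sums are as deposited. Rescaled, the median log2 difference was 0.30 for cardiomyocyte, 1.34 for erythroid (3 genes tested), 0.35 for macrophage, 0.14 for fibroblast and -0.10 for endothelial markers. Of the rescaled differences, 1 of 8 cardiomyocyte, 3 of 7 fibroblast and 4 of 7 endothelial ones were negative, and none of the macrophage or erythroid ones. The part of these cells in the left ventricular results was not tested.

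The levels of other frequent members in the left ventricle mostly overlapped or parted by scale. Timm8b was at 249, 253, 176 and 158 FPKM in LV banded and 142, 113, 139 and 198 FPKM in LV sham libraries, which overlapped. Timm17a was at 156, 175, 133 and 111 FPKM in LV banded and 73.8, 79.3, 81.5 and 98.7 FPKM in LV sham libraries, with no overlap (log2 difference 0.77, limma adjusted p = 0.0104 as deposited; 0.36 and 0.248 rescaled). Coa3 was at 146, 145, 115 and 133 FPKM in LV banded and 117, 84.5, 80.7 and 86.2 FPKM in LV sham libraries. A single sham library, LV sham 1, reached into its banded range. Ndufaf2 was at 43.3, 55.2, 44.7 and 32.1 FPKM in LV banded and 14.5, 21.8, 18.7 and 28.0 FPKM in LV sham libraries, with no overlap but no call (log2 difference 1.06 ± 0.42 SE, limma adjusted p = 0.102).

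The effect of banding was compared between the ventricles as the right ventricular difference minus the left. It was lower in the right ventricle for Timm13, Tomm7 and Tomm40l, 3 of 36 members (8.33%), and higher for none. With a term added for each library number, only Tomm7 still passed on both scales. In that fit 154 of the 12100 tested genes were lower for this difference and 24 higher. As deposited alone and without that term, the effect was lower for 5 members, where 5.53% of all tested genes were. Among all tested genes it was lower for 3.45% and higher for 0.529%. The interaction was -1.73 ± 0.31 SE for Timm13 (limma adjusted p = 0.003; -1.52 rescaled), -1.64 ± 0.28 SE for Tomm7 (limma adjusted p = 0.00212; -1.43 rescaled) and -0.98 ± 0.21 SE for Tomm40l (limma adjusted p = 0.011; -0.77 rescaled). In Timm13 the left ventricular values were 61.2, 43.1, 42.9 and 38.5 FPKM in banded and 29.2, 25.6, 30.5 and 33.5 FPKM in sham libraries, a log2 difference of 0.61 that did not pass (limma adjusted p = 0.0676). Its banded libraries thus lay below sham in the right ventricle and above sham in the left, without overlap in either.

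Tomm40l was at 36.9, 28.2, 32.2 and 29.0 FPKM in LV banded and 18.6, 18, 21 and 23.1 FPKM in LV sham libraries, again without overlap and opposite in sign to the right ventricle, where TPM scaling turned the sign (0.12, limma adjusted p = 0.639). Tomm40 did not pass on both scales for this difference (-0.91, limma adjusted p = 0.035 as deposited and 0.156 rescaled), with left ventricular values of 64.5, 40.6, 48.1 and 64.9 FPKM in banded and 37.9, 51.0, 40.9 and 51.1 FPKM in sham libraries. With TPM scaling the interactions were -1.05 for Timm13, -0.95 for Tomm7 and -0.31 for Tomm40l, and none passed (limma adjusted p = 0.149, 0.14 and 0.519). Without the libraries listed at 0 for Rn45s they were -1.41, -1.33 and -1.02 in the same order. That leaves 1 LV banded library, which cannot decide whether these calls hold. After the length and GC correction Timm13 was at -1.04 and passed (limma adjusted p = 0.0433). The members' median interaction was -0.49 as deposited and -0.28 rescaled, against -1.55 and -1.33 for the subunits, of which 50 of 79 passed as lower. All tested genes had medians of -0.07 and 0.11.

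Right and left ventricles of sham mice were compared next, with the same RV sham libraries that serve the banding comparison. Timm13, Tomm40 and Tomm7 were higher in RV sham than in LV sham libraries, 3 of 36 members beside 2.55% of all tested genes, and none was lower, beside 1.33%. The log2 differences were 1.10 for Timm13, 0.80 for Tomm40 and 0.74 for Tomm7, with limma adjusted p-values of 0.0161, 0.0217 and 0.0421. RV sham and LV sham libraries did not overlap in these 3 or in Tomm40l, Tomm5 and Sdhaf1, 6 members in all, beside 6.4% of all tested genes. None of the 3 passed with only the sham libraries in the fit (limma adjusted p = 0.0607 for Timm13, 0.0629 for Tomm40 and 0.0572 for Tomm7). After the length and GC correction Timm13 was at 0.64 and Tomm40 at 0.35 without passing (limma adjusted p = 0.0785 and 0.129), while Tomm7 passed at 0.77 (limma adjusted p = 0.0132). With libraries left out in turn, calls were lost for Tomm7, which did not pass without any 1 of the 4 RV sham libraries or of LV sham 1, 2 and 3 (limma adjusted p up to 0.11), and for Tomm40, which did not pass without RV sham 1, LV sham 1 or LV sham 3 (up to 0.0735). With TPM scaling 0 members were higher and 6 lower (16.7%) in RV sham libraries, beside 24.7% of all tested genes lower, and the members' median was -0.28 in place of 0.23, beside -0.47 for all tested genes. Markers of pancreatic islets, 6 genes, summed to 63.0 to 154 FPKM in RV banded, 635 to 2140 FPKM in RV sham, 24.1 to 58.2 FPKM in LV banded and 86.6 to 2090 FPKM in LV sham libraries. In the right ventricle the sham libraries all lay above the banded ones, as they did in the left, and the part of these transcripts in the results was not tested.

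In banded mice, Tomm7 was lower in RV than in LV libraries, 1 of 36 members beside 1.39% of all tested genes, and none was higher, beside 0.182%. Its log2 difference was -0.90 ± 0.19 SE (limma adjusted p = 0.0194) and -0.74 rescaled (limma adjusted p = 0.046). It did not pass at -0.41 after the length and GC correction, -0.54 with quantile normalization or -0.79 with TPM scaling (limma adjusted p = 0.184, 0.102 and 0.32). With TPM scaling 0 of the 12100 tested genes passed in this comparison. The call was lost when any 1 of the 4 RV banded libraries or of LV banded PS_9552, PS_9553 and PS_9564 was left out, and was kept without LV banded PS_9561. Groups without overlap, RV lower, were seen in 7 members beside 8.16% of all tested genes. The members' median was -0.34, against -0.95 for the subunits, of which 25 of 79 were lower in RV banded than in LV banded libraries.

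**Figure D4:**
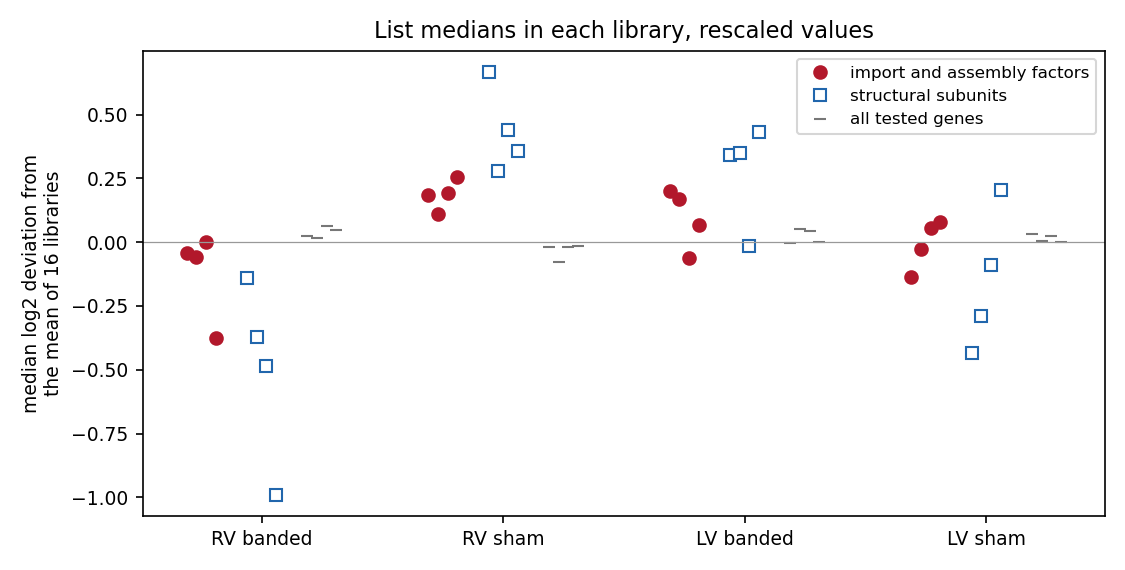
Median over each list of the rescaled log2 deviation from the mean of 16 libraries (y axis), 1 point per library, by group: filled circles 36 members, open squares 79 subunits, dashes all tested genes. The members' medians are -0.38 to 0.00 in RV banded and 0.11 to 0.26 in RV sham libraries; as deposited these ranges overlap (-0.21 to 0.26 and -0.10 to 0.27), and with TPM scaling the right ventricular difference of the members is positive (0.38).

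Library by library, the rescaled medians of the members lay between -0.38 and 0.00 in RV banded libraries and between 0.11 and 0.26 in RV sham libraries. As deposited they overlapped, at -0.21 to 0.26 in RV banded and -0.10 to 0.27 in RV sham libraries. The rescaled medians of the subunits lay between -0.99 and -0.14 in RV banded and between 0.28 and 0.67 in RV sham libraries. On rescaled values RV banded PS_9564 was the lowest library for both lists. In the left ventricle the members' rescaled medians overlapped, at -0.06 to 0.20 in LV banded and -0.14 to 0.08 in LV sham libraries, while as deposited they did not, at 0.02 to 0.52 in LV banded and -0.28 to -0.06 in LV sham libraries. Fibroblast markers, 7 genes, summed to 349 to 526 FPKM in RV banded and 202 to 265 FPKM in RV sham libraries, and mural cell markers, 5 genes, to 205 to 285 and 160 to 165 FPKM in the same order. What these shifts contribute to the medians was not tested.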

How the data were processed

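The authors deposited FPKM per gene and library. Per the submitters' processing notes, FastQC 0.11.5, STAR 2.5.3a, Cuffdiff, Cufflinks 2.2.1 and R 3.3.1 were used with the mm9 build; the annotation is not given in the sources used here. Here log2(FPKM + 1) was taken, and genes that reached 1 FPKM in 4 or more of the 16 libraries, 12100 in number, were tested. One limma 3.58.1 model (R 4.3.3, trended prior) with a mean per group gave 5 comparisons, with Benjamini-Hochberg adjustment over all tested genes and a threshold of 0.05. It was fitted to the deposited values and to rescaled ones, where a library's scale factor is its median ratio to the geometric mean of all libraries (8211 genes at 1 FPKM or more throughout). A call needs both. The code was tested on simulated data. FPKM give no depth, so fragments were estimated from where the lowest values, multiplied by transcript length, first pile up; this rests on the assumed fragment length.

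Values in every library are given for members that passed in any comparison, the 2 most abundant of each family and up to 3 per family with the smallest right ventricular p. From the other lists, the most abundant subunits and the smallest p per direction are named; Cox20 and Sco1 are added as the remaining calls of their list. The members, lists and both scales were chosen with earlier results of these data known. Same-numbered right and left libraries deviated together only weakly (8 pairs), which cannot show whether a shared number marks the same mouse. The main fit treats all libraries as independent. Calls that remained with a term per number (replicate block) are given at the end. Lengths, GC content and exon overlaps came from GENCODE vM21 and promoters from RefSeq (GRCm38.p6), not the authors' build. Alternatives covered pseudocount, filter, scaling, prior, library weights, libraries in the fit, a replicate block and leaving out each library. The authors' table of group values was not used here.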

Additional observations from a re-analysis of the deposited data

Results flagged for a closer look

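Of 144 sets of 4 libraries (36 members in 4 groups), 6 held a library far from the other 3, where chance alone gives about 1 in 20. Coa3 was at 117 FPKM in LV sham 1, with the next value at 86.2 FPKM. Ndufaf5, which modifies a complex I subunit, was at 9.42 FPKM in the same library, with the next at 4.45 FPKM. Sdhaf1 was at 35.8 FPKM in RV sham 2 (next 23.9 FPKM), and Timm17a at 123 FPKM in RV banded PS_9561 (next 85.1 FPKM), a library listed at 0 for Rn45s. On the low side, Timm8b was at 89.5 FPKM in RV banded PS_9564 (next 163 FPKM), also listed at 0 for Rn45s. Tomm34, a cytosolic co-chaperone, was at 8.54 FPKM in LV banded PS_9564 (next 13.8 FPKM), the only LV banded library not listed at 0.

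The effect of banding differed between the ventricles in 3 members by limma's interaction test. The log2 interaction was -1.73 for Timm13, -1.64 for Tomm7 and -0.976 for Tomm40l.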

How the results depend on the processing

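Depth limits the RV sham libraries most, where 21 of 36 members had a library under 10 estimated fragments. In banded right ventricles 2 members were lower; this became 7 rescaled only, 4 with quantile normalization, 9 with correction for length and GC content, 0 with TPM scaling and 0 without the libraries at 0 for Rn45s, while 10 were higher with TPM scaling. Of all tested genes 8.85% were lower with quantile normalization, 6.75% corrected and 1.17% with TPM scaling, and 47.0% higher with TPM scaling. Without the libraries at 0 for Rn45s, 249 of all tested genes were lower and 175 higher. The members' median of -0.05 became -0.24 rescaled, 0.38 with TPM scaling and -0.22 corrected. In the left ventricle 1 member was higher, against 6 as deposited only and 2 with library weights, and 1 was lower after the correction. The median of 0.49 became 0.0932 rescaled, 0.30 with TPM scaling, -0.0318 with quantile normalization, -0.0532 corrected and 0.12 without the Rn45s libraries. For the difference between ventricles 3 were lower, against 5 as deposited only and 0 with TPM scaling. The median of -0.49 became -0.28, 0.18, -0.12 and -0.09 (rescaled, TPM, quantile, corrected). Between sham ventricles 3 were higher, against 0 with TPM scaling or only the groups compared and 1 with quantile normalization or weights; with TPM scaling 6 were lower and the median of 0.23 was -0.28, and 0.00671 corrected. Between banded ventricles 1 was lower, against 0 with no filter, TPM scaling or quantile normalization and 2 with weights. With TPM scaling 0 of the 12100 tested genes passed there. The median of -0.34 became -0.13 with quantile normalization and -0.10 corrected. Without the Rn45s libraries 1 LV banded library is left, so calls in comparisons that use it cannot be judged. The cause of these shifts was not tested.

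Same-numbered right and left libraries correlated at -0.09 to 0.15, over 0.1 in 1 of 8 pairs, and 1 of 8 matched its own number best. With a replicate block, 1 member passed for the difference (Tomm7), 1 between sham (Timm13) and 0 between banded ventricles. Of the 12100 tested genes, 154 were then lower and 24 higher for the difference. Between sham ventricles 69 were higher and 39 lower, and between banded ventricles 3 were higher and 9 lower.

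Leaving out each library in turn gave 0 to 1 members higher in the right ventricle (Timm22 without RV sham 1, Coa5 without RV sham 2) and 2 lower throughout, with a median of -0.17 to -0.03. In the left ventricle 1 was higher throughout and the median was 0.40 to 0.55. For the difference 3 to 4 were lower and the median was -0.70 to -0.38. Between sham ventricles 1 to 3 were higher, 1 without LV sham 1 or 3, and between banded ventricles 0 to 1 were lower. Over single members and comparisons, 36 calls were lost and 44 gained among 2433 values from 14 other settings, and 17 lost and 5 gained among 1716 from leaving out a library; no call changed direction, while 174 and 71 values without a call changed sign.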
